A study of Mus musculus with 15 samples.

Results

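Submandibular glands of NOD/LTJ mice given SJQYD were compared with glands of untreated ICR mice, gene by gene, by RNA sequencing. The comparison takes 10 of the 15 libraries in the series, 5 labelled SJQYD and 5 labelled control, and was chosen by those labels alone. NOD/LTJ is an inbred strain used as a model of Sjögren's syndrome, and ICR is an outbred stock. SJQYD is the treatment under study and is known from the labels only by these letters. All mice carry the genotype label WT, and the labels give no age, dose, length of treatment or hour of collection. The 2 groups differ in strain and in treatment together, so these cannot be told apart in this comparison. The remaining 5 libraries come from untreated NOD/LTJ mice (called model). They entered the fit, and their values stand beside those of the compared groups. Nothing says more of the 5 libraries of a group than that they are separate samples, so the p-values measure the spread between these samples, which may be technical.

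The submandibular gland makes saliva. Its acinar cells synthesise mucins and other secreted proteins on a large endoplasmic reticulum and move salt and water through channels and pumps, while its ducts modify the fluid and, in rodents, store kallikreins and growth factors in granules. In NOD mice lymphocytes gather in the gland and secretion declines. Like most tissues the gland runs a circadian clock, a loop in which Arntl (also called Bmal1), Clock and Npas2 activate the Per, Cry and Nr1d genes, whose products then repress the activators.

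The total count was 54836440 to 63101584 per control library and 39510018 to 62335235 per SJQYD library. Mucl2, a secreted mucin-like product of the acini and a marker of the labelled tissue, took 48.4 ± 5.07% (SD, n = 5) of the counts in control and 36.8 ± 12.3% in SJQYD libraries, with 15.5% in SJQYD 1 (exact permutation test, two-sided, p = 0.0556). The factor that scales libraries to each other (TMM) was correspondingly lower in control, at 0.792 ± 0.159 against 1.2 ± 0.385 (exact permutation test, two-sided, p = 0.0317). A set of 4 parotid products took 4.17% of the counts in control 2 and 6.5% in SJQYD 1, against at most 0.623% in the other libraries of these groups, and 16% in model 3. Leaving out SJQYD 1 and control 2 together ended the calls of 10 named genes (Mt1, Errfi1, Uox, Ceacam10, Aldh1a7, Herpud1, Dnajb9, Ifih1, Nod2 and Ticam1, adjusted p 0.0508 to 0.108). With model 3 left out as well those of Slpi, Iglc1, Syvn1, Dpagt1 and Ryr1 were lost too, 15 in all (adjusted p up to 0.133). In SJQYD 3 Xist, which coats the silenced X chromosome, reached 1.01 CPM, against 231 to 270 CPM in the other SJQYD libraries. The Y-linked transcripts there were few as well, with 7 counts of Ddx3y and 4 of Eif2s3y. Control 4 held 11 and 4 counts of the same transcripts with Xist at 189 CPM. Over the control libraries Xist was 162 to 251 CPM. Floors of 3 counts correspond to 0.0290 to 0.0840 CPM over all libraries and cover counting error only. In bulk tissue, fewer cells of a type and less RNA per cell cannot be told apart.

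Of 18136 genes tested, 2017 differed between SJQYD and control glands at an adjusted p under 0.05 (11.1%; "called" below), 947 higher in SJQYD (5.22%) and 1070 lower (5.90%). An unadjusted p under 0.05 was reached by 4828. Among the called genes 331 were higher and 260 lower by at least 2-fold. The count fell to 1298 without SJQYD 2 and to 1240 without control 5. It was 1735 without SJQYD 3, and 2068 without SJQYD 1 and control 2. On counts scaled by TMM, the genes tested had a median log2 fold change of 0.04. The authors' FPKM values divide by the whole library, in which Mucl2 takes the largest share. On log2(FPKM + 1), fitted with limma over 12436 genes, the median was 0.33 and 3554 of 3643 calls were higher. With no FPKM filter, over 32479 genes, it was 0.05 and 1862 of 1954 calls were higher. Of the 2017 calls, 329 had the opposite sign on log2(FPKM + 1), 314 on log2(FPKM + 0.1) and 333 with no FPKM filter. Of the 99 named genes that were called and could be tested in all 3 FPKM settings 28 lost their call in each of them, and all 28 were falls, which are named as such below.

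**Figure D1:**
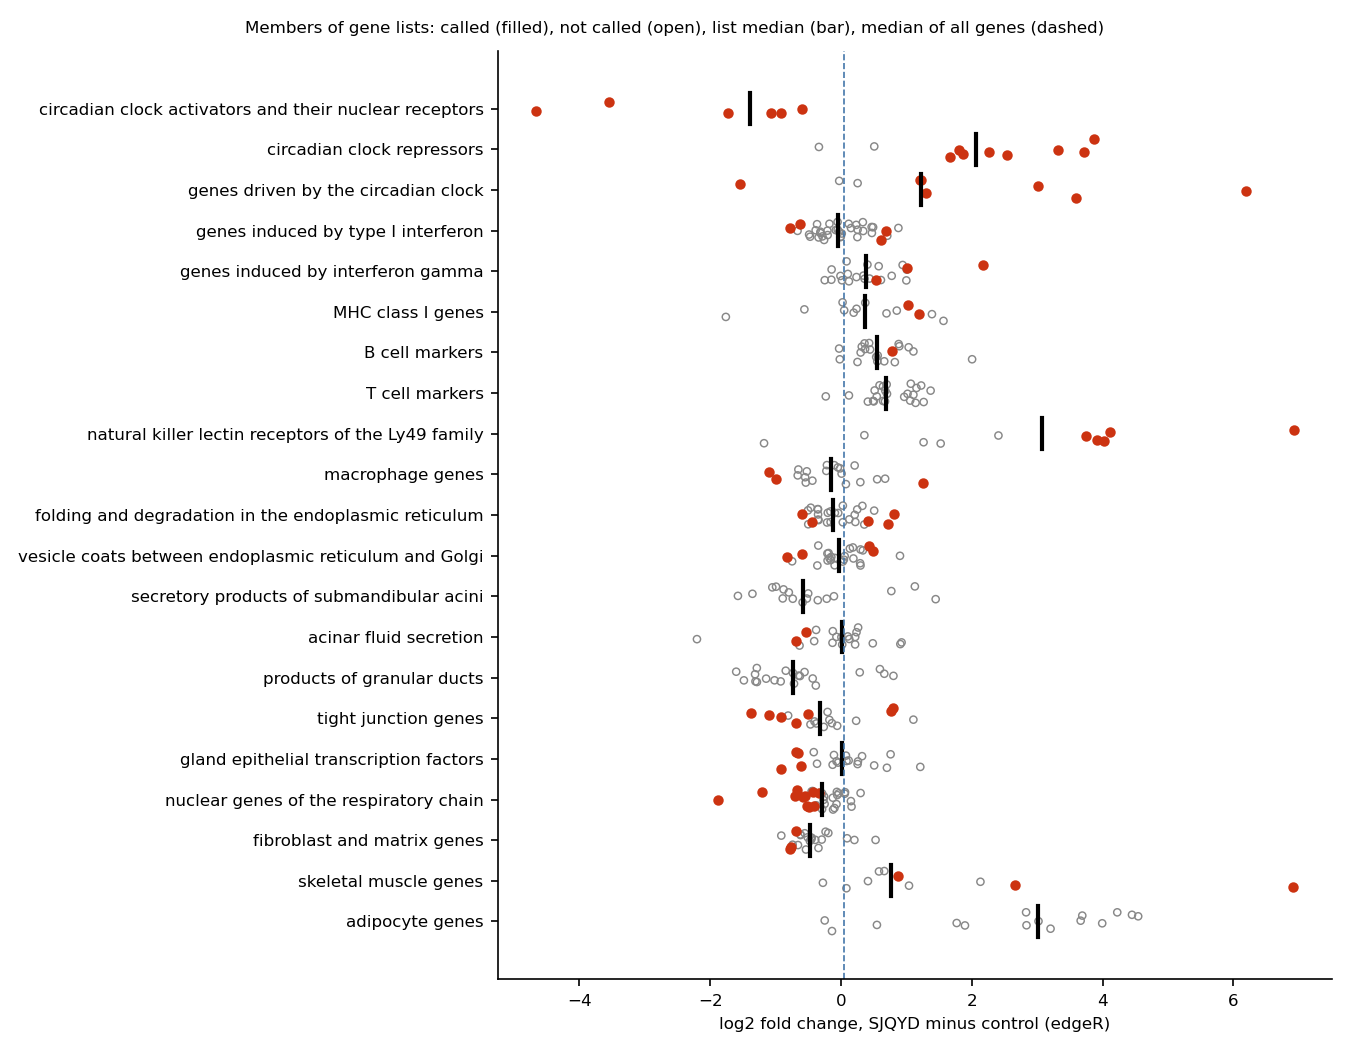
Log2 fold change of SJQYD minus control (horizontal axis) for the tested members of 21 gene lists (rows); filled points were called at an adjusted p under 0.05, open points were not, the bar is the list median and the dashed line the median of all genes (0.04). All 6 clock activators and activator-linked factors, which include the repressor Nfil3, lie to the left of 0. Of the clock repressors 8 of 10 are filled and to the right, and most other lists straddle the dashed line. The rightmost points of the Ly49 and skeletal muscle rows are Klra5 and Tnnt3, which had no count in control, so their fitted values depend on the prior count.

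Of the 56 gene lists described, the 3 lists of circadian clock genes held the largest shares of called members. The lists and their members were chosen with earlier results of these data known, so this ranking describes the lists and is not a test. All 6 tested activators and activator-linked factors were lower in SJQYD glands (6 of 6 called, median log2 fold change -1.39), against 5.90% of all genes. Of the repressors 8 of 10 were higher (median 2.07), against 5.22% of all genes. Of 9 tested genes driven by the clock 6 were higher and 1 was lower (median 1.22).

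Among the activators and activator-linked factors was Arntl, the partner of Clock in the activating dimer. It stood at 37.2, 15.9, 24.2, 28.1 and 9.59 CPM in the control libraries. In the SJQYD libraries it stood at 0.484, 0.824, 1.07, 1.13 and 1.07 CPM. Every control library was far above every SJQYD library (-4.66 ± 0.46 (SE, adjusted p = 4.22e-05)). Npas2, which can take the place of Clock, was 9.99, 6.95, 6.58, 11.8 and 4.63 CPM in control and 0.649, 0.282, 0.683, 0.793 and 0.978 CPM in SJQYD, again with no overlap (-3.55 ± 0.36 (SE, adjusted p = 1.88e-05)). Clock itself fell less, from 16.2, 13.8, 16.8, 15.1 and 12.2 CPM to 6.72, 8.3, 7.53, 8.57 and 8.14 CPM (-0.92 ± 0.11 (SE, adjusted p = 0.000115)). Nfil3, a leucine-zipper repressor in antiphase to Dbp in the textbook loop, was 53.3, 27.4, 34.6, 43.4 and 25.3 CPM in control and 11, 7.28, 10.3, 12.8 and 14.5 CPM in SJQYD (-1.72 ± 0.24 (SE, adjusted p = 0.000411)). The nuclear receptor Rora, which drives Arntl transcription, fell by a smaller amount (-0.60 ± 0.14 (SE, adjusted p = 0.0121)). Untreated NOD/LTJ glands lay between the compared groups for 3 of them, with Arntl at 11.9 ± 5.78 CPM, Npas2 at 5.47 ± 2.32 CPM and Nfil3 at 19 ± 5.38 CPM (SD, n = 5). The calls of Clock and Rora were lost in all 3 FPKM settings (adjusted p 0.211 to 0.927).

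Among the repressors, Per2, a core period protein, was 3.08, 5.8, 2.81, 6.33 and 3.7 CPM in control and 50.5, 55.2, 42.7, 26.4 and 41.8 CPM in SJQYD glands. Every SJQYD library was above every control library (3.31 ± 0.34 (SE, adjusted p = 4.84e-05)). Per3 was 2.1, 6.39, 2.49, 2.65 and 7.1 CPM in control and 63.5, 68.8, 56.6, 37.7 and 47.3 CPM in SJQYD (3.72 ± 0.42 (SE, adjusted p = 0.000133)). Per1, which also responds to glucocorticoids, was 15.8, 24.4, 10.6, 18.5 and 9.87 CPM in control and 111, 94.1, 87.2, 62.4 and 104 CPM in SJQYD (2.53 ± 0.35 (SE, adjusted p = 0.000617)). Ciart, a repressor of the Clock and Arntl dimer, was under 1 CPM in all 5 control libraries (0.308, 0.81, 0.517, 0.338 and 0.761) and 10.8, 8.04, 9.59, 4.83 and 7.3 CPM in SJQYD (3.88 ± 0.43 (SE, adjusted p = 4.78e-05)). The cryptochromes did not move together. Cry2 was 3.81, 4.88, 5.0, 5.59 and 5.45 CPM in control and 23.2, 16.7, 19.7, 16.9 and 13.9 CPM in SJQYD (1.87 ± 0.17 (SE, adjusted p = 7.09e-06)). Cry1 was not called (-0.34 ± 0.25 (SE, adjusted p = 0.437)), with 4.71 to 9.99 CPM in control and 3.64 to 8.76 CPM in SJQYD, and its sign turned on the FPKM scale. The nuclear receptors that silence Arntl, Nr1d1 (1.67 ± 0.36 (SE, adjusted p = 0.00937)) and Nr1d2 (1.80 ± 0.21 (SE, adjusted p = 0.0001)), rose, as did the E-box repressor Bhlhe41 (2.27 ± 0.31 (SE, adjusted p = 0.000322)). In model libraries Per2 was 2.64 ± 1.16 CPM, Per3 5.34 ± 2.35 CPM, Ciart 1.03 ± 0.642 CPM and Nr1d1 37.3 ± 17 CPM (SD, n = 5).

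Among the genes driven by the clock, Dbp, a leucine-zipper activator that binds D-boxes, had the largest fold change of the clock lists. It was 0.70, 4.03, 0.985, 0.469 and 6.93 CPM in control libraries. In SJQYD libraries it was 136, 168, 204, 229 and 235 CPM, far above every control library (6.20 ± 0.95 (SE, adjusted p = 0.00183)). Its relatives Tef and Hlf rose too. Tef was 0.616, 24.3, 13.4, 14 and 20.6 CPM in control, with control 1 far below the rest, and 212, 185, 170, 155 and 161 CPM in SJQYD (3.59 ± 0.63 (SE, adjusted p = 0.00413)). Hlf was 1.01 to 1.8 CPM in control and 2.94 to 3.7 CPM in SJQYD (1.20 ± 0.21 (SE, adjusted p = 0.00235)). Usp2, a deubiquitinase transcribed with a strong daily rhythm, was close to constant within control at 5.29, 4.93, 4.85, 4.66 and 4.98 CPM and reached 49.95, 47.7, 34.1, 27.4 and 39.99 CPM in SJQYD (3.01 ± 0.22 (SE, adjusted p = 4.25e-07)). Coq10b, which serves coenzyme Q in mitochondria, was 3.7 to 5.68 CPM in control and 8.82 to 13.7 CPM in SJQYD (1.22 ± 0.15 (SE, adjusted p = 0.00015)). The member that fell was Leo1, a subunit of the Paf1 transcription elongation complex, at 9.23, 6.05, 9.51, 6.66 and 8.91 CPM in control and 2.6, 2.6, 2.79, 3.08 and 2.69 CPM in SJQYD (-1.55 ± 0.16 (SE, adjusted p = 1.79e-05)).

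**Figure D2:**
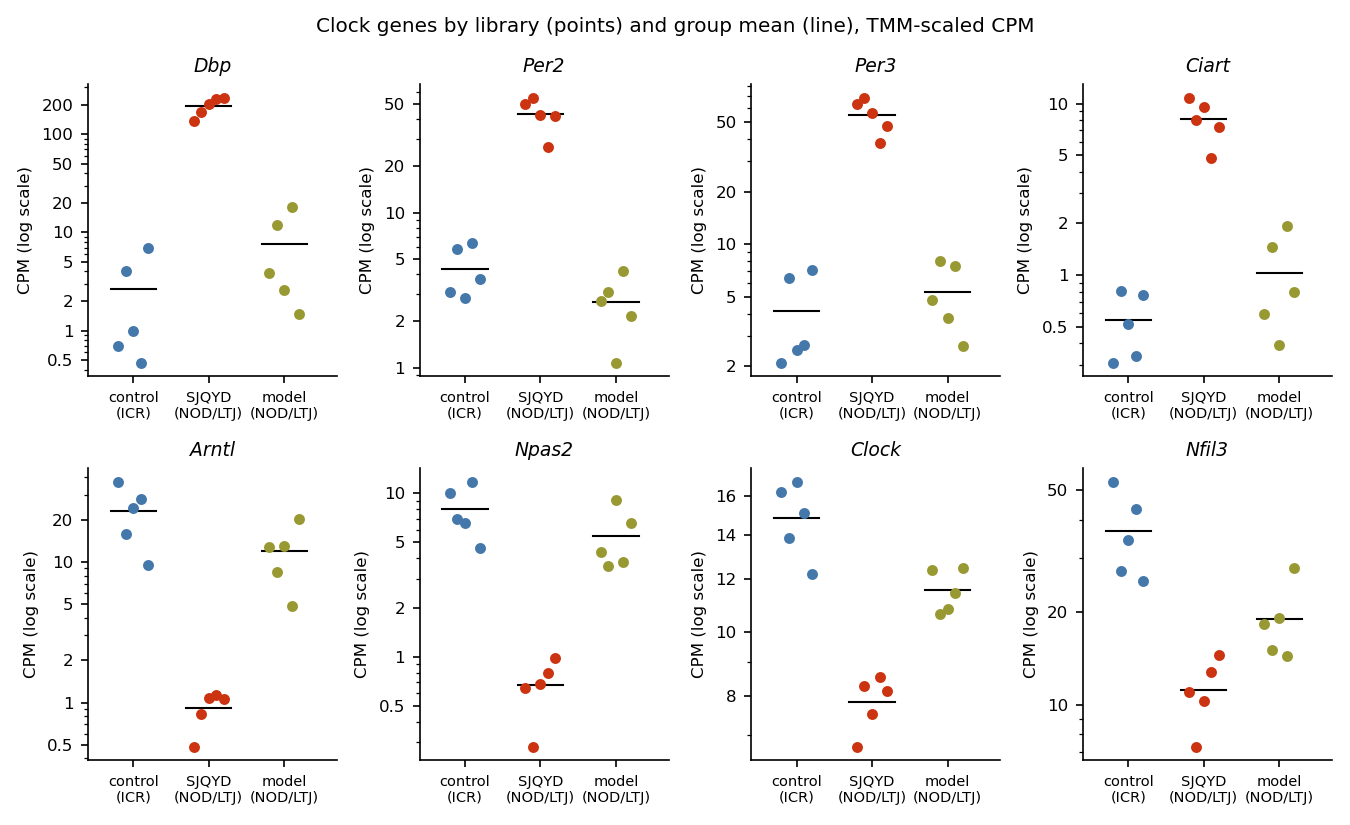
TMM-scaled CPM on a log axis for 8 clock genes, with 1 point per library and a line at the group mean for control (ICR), SJQYD (NOD/LTJ) and model (NOD/LTJ) glands, 5 libraries each. The upper row (Dbp, Per2, Per3, Ciart) is high in every SJQYD library and the lower row (Arntl, Npas2, Clock, Nfil3) is low in every SJQYD library, with no overlap with control.

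The promoters of the clock genes were read from RefSeq (GRCm38.p6, the C57BL/6J reference, not the sequence of these mice), as windows of 300 bases that run from 250 bases before the start of transcription to 50 after it. Promoters were found for 21 clock genes, with 28 windows in all. The E-box CACGTG, to which the activating dimer and Bhlhe41 bind, was searched on both strands. It lay in 7 of 28 clock windows (Bhlhe41, Ciart, Coq10b, Cry1, Per1 and both windows of Tef) and in 7.15% of all 32851 windows. The D-box TTANGTAA, to which Dbp, Tef, Hlf and Nfil3 bind, lay in the windows of Coq10b and Per3 and in 2.32% of all windows. Windows are shown for 3 genes that rose and hold E-boxes (Ciart with 3, Per1 with 1, Tef with 1), for Per3 with its 2 D-boxes, and for Arntl, which fell and whose window holds neither motif. Motifs are in capitals, and each is a match of letters only. The windows are Ciart (chr3:95882179-95882478, minus strand), Per1 (chr11:69098699-69098998, plus strand), Tef (chr15:81802423-81802722, plus strand), Per3 (chr4:151044616-151044915, minus strand) and Arntl (chr7:113207215-113207514, plus strand), each written 5′ to 3′ on the gene's strand.
Ciart: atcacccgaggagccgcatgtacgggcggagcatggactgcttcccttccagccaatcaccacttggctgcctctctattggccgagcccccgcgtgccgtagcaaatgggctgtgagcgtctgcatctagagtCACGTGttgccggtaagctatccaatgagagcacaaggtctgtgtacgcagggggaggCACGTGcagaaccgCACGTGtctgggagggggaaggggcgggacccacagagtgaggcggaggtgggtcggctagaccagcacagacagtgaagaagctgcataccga
Per1: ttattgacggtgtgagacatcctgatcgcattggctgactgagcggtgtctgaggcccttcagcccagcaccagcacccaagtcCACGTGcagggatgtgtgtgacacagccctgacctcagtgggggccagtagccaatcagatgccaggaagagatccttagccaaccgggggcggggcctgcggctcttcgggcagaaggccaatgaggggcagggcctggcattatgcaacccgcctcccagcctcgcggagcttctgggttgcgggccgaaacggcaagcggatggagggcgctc
Tef: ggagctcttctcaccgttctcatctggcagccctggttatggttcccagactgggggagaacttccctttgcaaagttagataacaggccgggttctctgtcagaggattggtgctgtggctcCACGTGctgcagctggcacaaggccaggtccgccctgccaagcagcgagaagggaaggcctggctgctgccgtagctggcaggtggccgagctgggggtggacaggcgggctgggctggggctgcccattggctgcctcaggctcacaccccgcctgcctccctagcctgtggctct
Per3: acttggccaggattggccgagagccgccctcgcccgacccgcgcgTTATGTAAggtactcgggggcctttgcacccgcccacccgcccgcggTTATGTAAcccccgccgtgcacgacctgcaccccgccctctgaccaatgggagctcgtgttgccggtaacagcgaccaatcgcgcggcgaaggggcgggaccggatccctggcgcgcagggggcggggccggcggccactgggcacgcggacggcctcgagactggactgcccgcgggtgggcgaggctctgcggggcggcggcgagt
Arntl: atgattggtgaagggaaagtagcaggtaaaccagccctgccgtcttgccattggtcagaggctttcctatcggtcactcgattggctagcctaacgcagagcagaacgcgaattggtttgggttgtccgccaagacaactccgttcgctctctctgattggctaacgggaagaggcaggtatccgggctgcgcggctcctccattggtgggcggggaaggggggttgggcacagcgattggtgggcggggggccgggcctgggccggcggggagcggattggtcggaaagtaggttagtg
The first E-box base lay 116, 58 and 44 bases before the start in Ciart, 166 in Per1 and 127 in Tef. The D-boxes of Per3 began 205 and 158 bases before its start.

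Most of the clock genes also differed between SJQYD and model glands, where the strain is the same and 2.75% of all genes were called. That test shares the SJQYD libraries with the main comparison, so its values are given side by side and are not a second measurement. The time of day at which each gland was taken is unknown, and its part in the clock differences was not tested. Against model the log2 fold change was 4.04 ± 0.35 (SE, adjusted p = 3.4e-05) for Per2, 2.91 ± 0.22 (SE, adjusted p = 4.85e-06) for Usp2 and -3.71 ± 0.44 (SE, adjusted p = 0.000548) for Arntl. For Nr1d1 it was 0.87 ± 0.35 (SE, adjusted p = 0.221), for Nfil3 -0.77 ± 0.23 (SE, adjusted p = 0.0939) and for Rora -0.04 ± 0.14 (SE, adjusted p = 0.937), none of which was called. By list, against model 3 of 6 activators and activator-linked factors were lower and 7 of 10 repressors higher. Of the clock-driven genes 6 of 9 were higher and 1 was lower.

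Outside the clock, 5 genes ranked among those called in the same direction in both tests. Gnl3, a nucleolar GTPase of dividing cells, was 14.8, 18.6, 20.6, 16.6 and 14.5 CPM in control and 36.7, 44.5, 37.8, 39.5 and 34.8 CPM in SJQYD (1.18 ± 0.13 (SE, adjusted p = 4.11e-05)). Nfxl1, a zinc-finger protein, rose from 6.93 to 8.97 to 14.6 to 18.6 CPM (1.05 ± 0.12 (SE, adjusted p = 4.84e-05)). Bmf, a death-promoting protein of the Bcl2 family, was 22.6, 15.9, 21.8, 18 and 18.6 CPM in control and 6.34, 5.4, 9.0, 10.7 and 7.04 CPM in SJQYD (-1.33 ± 0.17 (SE, adjusted p = 0.000206)). The mitochondrial carrier Slc25a34 fell from 29.3 to 48.8 to 8.24 to 16.6 CPM (-1.65 ± 0.21 (SE, adjusted p = 0.000227)), and the small GTPase Arl4a from 19.1 to 26.6 to 8.46 to 11.4 CPM (-1.19 ± 0.16 (SE, adjusted p = 0.00022)). Against model their log2 fold changes were 1.07, 1.35, -1.32, -1.93 and -1.19 (adjusted p = 0.000304, 1.2e-05, 0.000548, 0.000189 and 0.000548). Arl4a lost its call in all 3 FPKM settings (adjusted p 0.0865 to 0.232).

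Of 15 glucocorticoid-induced genes 5 were higher and none was lower (median 0.51), against 5.22% of all genes higher. Per1 and Tsc22d3 are among the 5 and are counted in the clock lists as well, so the lists are not independent. Tsc22d3 (also called Gilz), an anti-inflammatory leucine-zipper protein, was 19.7, 21, 16.6, 15.3 and 12.2 CPM in control and 46.7, 47.8, 52, 27.7 and 35.8 CPM in SJQYD (1.31 ± 0.23 (SE, adjusted p = 0.00278)). The metallothioneins, which bind zinc, rose as well, Mt2 by 1.24 ± 0.32 (SE, adjusted p = 0.0249) and Mt1 by 0.82 ± 0.23 (SE, adjusted p = 0.0294). Mt2 was 21.9, 19.8, 18.7, 14.1 and 34.1 CPM in control and 29.3, 62.7, 49.9, 55.6 and 58.7 CPM in SJQYD, with overlap, and its mean in model was 51.8 ± 27.3 CPM (SD, n = 5). The call of Mt2 was lost without SJQYD 2, SJQYD 4, control 1, control 3 or control 4 (adjusted p up to 0.059), and that of Mt1 without SJQYD 2, SJQYD 4, SJQYD 5, control 1, control 3 or control 4 (adjusted p up to 0.0711). The fifth, Errfi1, a brake on growth factor receptors, changed by 0.51 ± 0.15 (SE, adjusted p = 0.0393), and its call was lost without SJQYD 1, SJQYD 2, SJQYD 4, SJQYD 5, control 1, control 2, control 3 or control 5 (adjusted p up to 0.0981). None of 21 immediate early genes was called, and 3 reached an unadjusted p under 0.05.

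The interferon lists held calls at about the share of all genes, 11.1%. Of 36 genes induced by type I interferon 2 were higher and 2 lower (11.1%, median -0.04), and of 22 induced by interferon gamma 3 were higher (13.6%, median 0.38). None of 24 T cell markers was called (median 0.69, with 0 at an unadjusted p under 0.05), and 1 of 20 B cell markers was (median 0.55). No member was called among 15 tested lymphoid chemokines and lymphotoxins, 18 inflammatory chemokines, 24 genes of the NF-kB pathway or 12 endothelial adhesion molecules, where 0, 3, 5 and 1 reached an unadjusted p under 0.05.

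Within the interferon and MHC class I lists, the largest fold change was that of Nlrc5, the transactivator of MHC class I genes. It was 2.6, 18.9, 9.85, 3.89 and 11.4 CPM in control and 24.8, 49, 30.9, 42.1 and 64 CPM in SJQYD, with no overlap (2.17 ± 0.44 (SE, adjusted p = 0.00821)), and 36.7 ± 4.7 CPM in model (SD, n = 5). Among MHC class I genes 2 of 13 were higher (15.4%, against 5.22% of all genes), H2-Q4 (1.02 ± 0.27 (SE, adjusted p = 0.0227)) and H2-T24 (1.19 ± 0.17 (SE, adjusted p = 0.000532)). H2-T24 was 3.58, 4.93, 7.0, 5.54 and 4.67 CPM in control and 10.7, 11.2, 12.4, 11.5 and 12.8 CPM in SJQYD. In model it was 5.73 ± 1.15 CPM, and against model it rose by 1.03 ± 0.17 (SE, adjusted p = 0.0034). The immunoproteasome subunit Psmb8 was 11.4, 29.5, 15.5, 14.2 and 33.9 CPM in control and 29.2, 62.7, 41.6, 29.9 and 51.9 CPM in SJQYD (1.04 ± 0.29 (SE, adjusted p = 0.0328)), with overlap. Iigp1, an interferon-induced GTPase, was 3.83, 4.9, 1.77, 3.32 and 5.12 CPM in control and 4.61, 12.5, 7.71, 5.44 and 8.11 CPM in SJQYD (1.01 ± 0.29 (SE, adjusted p = 0.033)). In model, Psmb8 averaged 67.2 ± 7.8 CPM and Iigp1 14.4 ± 3.03 CPM. The call of H2-Q4 was lost without SJQYD 2, control 3 or control 4 (adjusted p up to 0.0615), that of Psmb8 without SJQYD 2, SJQYD 3, SJQYD 5, control 1, control 3 or control 4 (adjusted p up to 0.0863) and that of Iigp1 without SJQYD 2, SJQYD 3, SJQYD 5, control 1, control 3 or control 4 (adjusted p up to 0.0937).

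The type I interferon genes called went in both directions. Stat2, a transcription factor of the interferon receptor, was 53.9, 40.3, 38, 38.1 and 45.9 CPM in control and 51.6, 89.3, 46.7, 73.2 and 86 CPM in SJQYD (0.68 ± 0.17 (SE, adjusted p = 0.0153)), and Ifi35 rose by 0.62 ± 0.14 (SE, adjusted p = 0.0116). Sp100, a nuclear body protein, was 66.8, 69.2, 69.1, 53.5 and 57.3 CPM in control and 26.7, 40.7, 34.2, 37.3 and 45.6 CPM in SJQYD, with no overlap (-0.78 ± 0.14 (SE, adjusted p = 0.00284)). Sp100 averaged 79.1 ± 11.5 CPM in model, and against model it fell by 1.10 ± 0.14 (SE, adjusted p = 0.000548) on the log2 scale. The fourth, the RNA sensor Ifih1, was lower as well (-0.63 ± 0.20 (SE, adjusted p = 0.0495)), a call lost without SJQYD 1, SJQYD 2, SJQYD 3, SJQYD 4, control 1, control 3 or control 5 (adjusted p up to 0.142). Sp100 and Ifih1 lost their calls in all 3 FPKM settings (adjusted p 0.315 to 0.867).

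Cxcl13, the chemokine that draws B cells, was 1.87, 3.94, 0, 1.61 and 1.11 CPM in control and 0.959, 6.48, 3.35, 2.34 and 2.22 CPM in SJQYD, with the groups overlapping (0.83 ± 0.72 (SE, adjusted p = 0.516)). In model libraries it was 8.61, 7.18, 9.84, 12.5 and 5.26 CPM. Cd3e, part of the CD3 signalling unit of T cells, was 0.364, 3.85, 0.271, 0.188 and 0.453 CPM in control and 0.474, 1.78, 3.77, 0.378 and 1.43 CPM in SJQYD (0.59 ± 0.95 (SE, adjusted p = 0.75)). Its highest values were control 2 and SJQYD 3, and without SJQYD 3 the log2 fold change was -0.04. The heavy chain of IgM, Ighm, was 9.51, 32.7, 4.8, 35.9 and 31.3 CPM in control and 12.1, 58.7, 46.7, 53 and 84.1 CPM in SJQYD (1.15 ± 0.58 (SE, adjusted p = 0.231)). Ighm was called higher in 2 of 26 alternative settings, none of them with 1 library left out. The summed level of the 24 T cell markers was 12.1 to 193 CPM in control and 25.1 to 275 CPM in SJQYD. That of the 20 B cell markers was 17 to 142 CPM in control and 36 to 108 CPM in SJQYD, and their part in the results was not tested.

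Plasma cell genes had a median log2 fold change of 1.10 with 2 of 20 called, Iglc1 and Irf4, against 11.1% of all genes. An unadjusted p under 0.05 was reached by 9 of the 20, against 4828 of all 18136 genes. In 5 of the 20 the groups did not overlap. The summed level of the 20 genes was 472 to 1570 CPM in control and 1477 to 2937 CPM in SJQYD. Iglc1, a constant region of the lambda light chain, was 0.028, 0.504, 0, 3.47 and 1.01 CPM in control and 24.4, 8.54, 15.4, 12.6 and 27.1 CPM in SJQYD, with no overlap (4.09 ± 0.91 (SE, adjusted p = 0.0137)), and 17.2 ± 9.02 CPM in model. Irf4, a transcription factor of plasma cells, was 0.246 to 1.55 CPM in control and 1.87 to 3.13 CPM in SJQYD (1.55 ± 0.43 (SE, adjusted p = 0.029)), and its call was lost without SJQYD 1, SJQYD 2, SJQYD 5, control 1, control 3 or control 5 (adjusted p up to 0.0758). Iglc1 shares near-identical sequence with other light chain segments, so its counts are uncertain.

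The Ly49 receptors of natural killer cells, a family of near-identical genes whose counts can be split by the counting, held more calls than the other lymphocyte lists. Of 10 tested 5 were higher, against 5.22% of all genes, and none was lower (median 3.08, or 2.19 with Klra5 set at its bound). Klra7 was 0.28, 0.216, 0, 0.30 and 0.35 CPM in control and 2.18, 5.22, 2.31, 3.68 and 5.71 CPM in SJQYD (4.03 ± 0.53 (SE, adjusted p = 0.000362)). Klra1 was 0.28, 0.126, 0, 0.488 and 0 CPM in control and 1.76, 4.51, 2.55, 3.42 and 3.55 CPM in SJQYD (4.11 ± 0.67 (SE, adjusted p = 0.00182)). Klra8 (3.74 ± 0.77 (SE, adjusted p = 0.00657)) and Klra13-ps were also higher. Klra5 had no count in any control library and 0.0775, 0.759, 0.0776, 0.0755 and 0.297 CPM in the SJQYD libraries, a mean at least 3.90-fold higher than the mean control floor of 3 counts per library. In model libraries Klra7 averaged 6.83 ± 2.96 CPM and Klra1 5.91 ± 1.41 CPM (SD, n = 5). Among 18 other cytotoxic lymphocyte genes the cathepsin Ctsw was the member called, at 2.99, 5.4, 2.14, 1.9 and 2.92 CPM in control and 5.75, 11, 8.77, 5.47 and 7.49 CPM in SJQYD (1.32 ± 0.33 (SE, adjusted p = 0.0184)), a call lost without SJQYD 2 (adjusted p up to 0.051).

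Macrophage genes were mixed, with 1 of 20 higher and 2 lower (15.0% called, against 11.1% of all genes, median -0.16). Cx3cr1, the fractalkine receptor, was 5.32, 5.31, 7.51, 5.37 and 6.5 CPM in control and 2.78, 2.84, 2.11, 2.89 and 4.45 CPM in SJQYD, so each SJQYD library was below each control library (-0.99 ± 0.22 (SE, adjusted p = 0.00986)). In model it averaged 8.55 ± 2.57 CPM, and against model the log2 fold change was -1.51 ± 0.22 (SE, adjusted p = 0.00137). Itgam, the CD11b integrin chain, fell by 1.10 ± 0.29 (SE, adjusted p = 0.0221) on the log2 scale, a call lost without SJQYD 1, SJQYD 2, SJQYD 4, control 3 or control 5 (adjusted p up to 0.0693). Mertk, a receptor for apoptotic cells, was 1.2, 3.21, 2.34, 3.29 and 2.74 CPM in control and 10.2, 3.49, 7.42, 4.21 and 5.24 CPM in SJQYD (1.26 ± 0.31 (SE, adjusted p = 0.0149)). The summed level of the 20 macrophage genes was 143 to 220 CPM in control and 125 to 183 CPM in SJQYD. The call of Cx3cr1 against control was lost in all 3 FPKM settings (adjusted p 0.227 to 0.463).

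**Figure D3:**
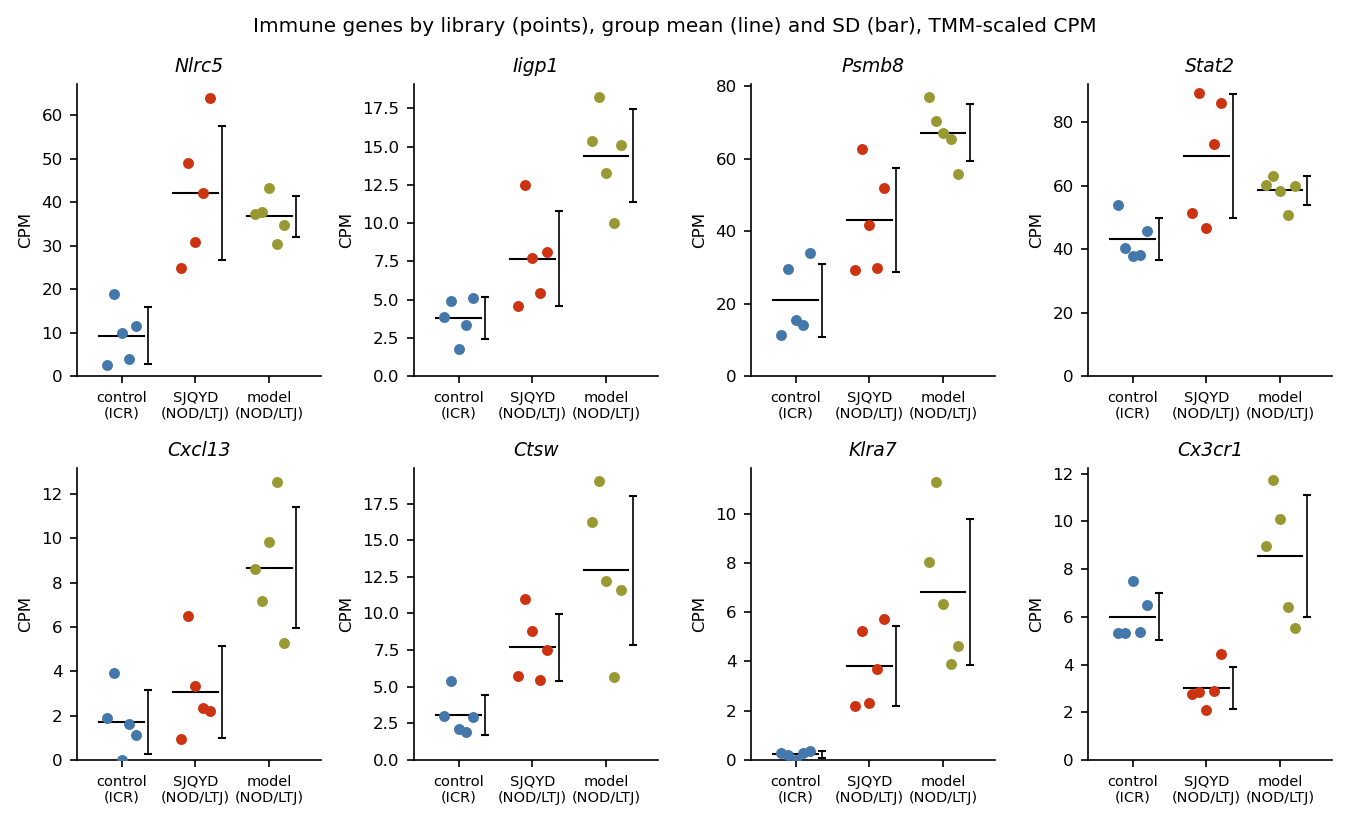
TMM-scaled CPM on linear axes for 8 immune genes, with 1 point per library, a line at the group mean and a bar of 1 SD, for control (ICR), SJQYD (NOD/LTJ) and model (NOD/LTJ) glands, 5 libraries each. Nlrc5 and Klra7 are higher in every SJQYD library than in every control library, Cx3cr1 is lower in every SJQYD library, and Cxcl13 overlaps between these groups.

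Lists of the secretory pathway held calls in both directions, at 14.3 to 17.9% for folding, vesicle coats and N-glycans, near the 11.1% of all genes, which also went both ways. Of 28 genes for folding and degradation in the endoplasmic reticulum 3 were higher and 2 lower (median -0.13). Herpud1, part of the machinery that sends misfolded proteins to degradation, was 89.7, 98.7, 121, 89.7 and 91.8 CPM in control and 209, 166, 168, 164 and 150 CPM in SJQYD (0.80 ± 0.23 (SE, adjusted p = 0.0369)). Dnajb9, a co-chaperone, rose from 8.2 to 15.5 to 12.9 to 23.5 CPM (0.72 ± 0.19 (SE, adjusted p = 0.0202)), and the ubiquitin ligase Syvn1 from 52.1 to 63.3 to 66.1 to 93 CPM (0.42 ± 0.11 (SE, adjusted p = 0.0223)). The calls were lost without SJQYD 1, SJQYD 2, SJQYD 3, SJQYD 4, control 1, control 2, control 4 or control 5 (adjusted p up to 0.0864) for Herpud1, without SJQYD 1, control 3 or control 5 (adjusted p up to 0.0527) for Dnajb9 and without SJQYD 1, SJQYD 5 or control 5 (adjusted p up to 0.0635) for Syvn1. Against model, where 2.75% of all genes were called in either direction, 6 of 28 were higher and none was lower (median 0.35). The log2 fold changes against model were 1.03 ± 0.24 (SE, adjusted p = 0.0257) for Herpud1, 1.35 ± 0.19 (SE, adjusted p = 0.00082) for Dnajb9 and 0.87 ± 0.11 (SE, adjusted p = 0.000547) for Syvn1. Those lower than in control were the co-chaperone Dnajc3 (-0.59 ± 0.17 (SE, adjusted p = 0.0309), lost without SJQYD 2, SJQYD 3, SJQYD 4, SJQYD 5, control 1, control 3, control 4 or control 5 (adjusted p up to 0.0788)) and the lectin Os9 (-0.44 ± 0.13 (SE, adjusted p = 0.0405)), whose sign turned on the FPKM scale and whose call was lost without SJQYD 1, SJQYD 2, SJQYD 3, SJQYD 5, control 1, control 3 or control 5 (adjusted p up to 0.126). Dnajc3 and Os9 were not called in any FPKM setting (adjusted p 0.561 to 1).

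In the integrated stress response, which limits translation under amino acid shortage and misfolding, 3 of 20 genes were higher and 1 was lower (median 0.42), against 11.1% of all genes called. Ddit3 (also called Chop), a stress-induced transcription factor, was 9.79, 13.5, 10.2, 10.8 and 9.34 CPM in control and 40.3, 29.8, 20.7, 15.3 and 24.5 CPM in SJQYD, with no overlap (1.29 ± 0.24 (SE, adjusted p = 0.00359)). Atf4, the factor that drives it, was 138, 162, 157, 154 and 120 CPM in control and 288, 226, 202, 210 and 163 CPM in SJQYD (0.57 ± 0.14 (SE, adjusted p = 0.0179)), a call lost without control 5 (adjusted p up to 0.0534). Of 19 aminoacyl-tRNA synthetases 3 were higher, led by Qars, which charges the glutamine tRNA, at 50.8, 45.3, 45.1, 41.2 and 37.5 CPM in control and 67.8, 68.4, 64.8, 79.7 and 72.4 CPM in SJQYD (0.68 ± 0.11 (SE, adjusted p = 0.00128)).

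Among 26 genes of vesicle coats between endoplasmic reticulum and Golgi 2 were higher and 2 lower (median -0.03). The coat subunit Sec24c was 57.5, 63, 53.7, 51.3 and 50.1 CPM in control and 92.4, 75.4, 71.4, 72 and 74.4 CPM in SJQYD (0.48 ± 0.10 (SE, adjusted p = 0.00548)). Mcfd2, a cargo receptor for glycoproteins, was 134, 103, 104, 113 and 110 CPM in control and 70.9, 56, 56, 68.7 and 65.3 CPM in SJQYD (-0.83 ± 0.15 (SE, adjusted p = 0.00249)), and the cargo receptor Tmed10 fell by 0.60 ± 0.14 (SE, adjusted p = 0.0121) on the log2 scale. Mcfd2 averaged 56.4 ± 13.8 CPM and Sec24c 57.9 ± 3.09 CPM in model (SD, n = 5). For N-glycan synthesis 2 of 28 genes were higher and 2 lower (median -0.07). Mogs, the glucosidase that starts glycan trimming, was 36.4, 36.5, 30.4, 31 and 24.5 CPM in control and 65, 47.5, 49.2, 47 and 43.8 CPM in SJQYD (0.67 ± 0.14 (SE, adjusted p = 0.00657)), and Dpagt1, which starts the lipid-linked glycan, rose by 0.55 ± 0.14 (SE, adjusted p = 0.0185). Mcfd2 and Tmed10 lost their calls in all 3 FPKM settings (adjusted p 0.344 to 0.982).

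The products of the gland itself gave no calls in the main fit. None of 17 secretory products of the acini was called (median -0.59, with 4 at an unadjusted p under 0.05), and none of 21 granular duct products (median -0.73, with 6). The fitted log2 difference of Mucl2 was -0.88 ± 0.39 (SE, adjusted p = 0.156). Egf, epidermal growth factor of the granular ducts, was 89.3, 152, 345, 118 and 557 CPM in control and 69.7, 52.6, 76.1, 72.7 and 237 CPM in SJQYD (-1.31 ± 0.56 (SE, adjusted p = 0.153)), and Klk1, a kallikrein of the same cells, was 9087, 6660, 8003, 7332 and 17617 CPM in control and 2840, 5890, 4052, 6067 and 8286 CPM in SJQYD (-0.84 ± 0.29 (SE, adjusted p = 0.0728)). These products varied widely within each group, and control 5 was highest for both Egf and Klk1. Egf was called lower in 2 of 26 alternative settings and Klk1 in 3. With 1 library left out, the lowest adjusted p (edgeR) was 0.0408 for Egf and 0.0383 for Klk1.

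For acinar fluid secretion, 2 of 20 genes were lower and none was higher (against 11.1% of all genes called), among them the sodium pump subunit Atp1b1 (-0.54 ± 0.16 (SE, adjusted p = 0.0445)). Its sign turned on the FPKM scale, where it was not called (adjusted p 0.911 to 0.982), and its call was lost without SJQYD 1, SJQYD 2, SJQYD 3, SJQYD 4, SJQYD 5, control 1, control 3, control 4 or control 5 (adjusted p up to 0.128). The water channel Aqp5 was 452, 345, 403, 464 and 336 CPM in control and 573, 424, 509, 458 and 364 CPM in SJQYD (0.22 ± 0.16 (SE, adjusted p = 0.42)). The muscarinic receptor Chrm3, which starts fluid secretion, was 10.9, 7.47, 8.06, 9.48 and 1.11 CPM in control and 7.23, 0.607, 5.39, 6.57 and 3.97 CPM in SJQYD (-0.63 ± 0.56 (SE, adjusted p = 0.527)). Neither was called in the main fit, and in each case the groups overlapped. Aqp5 was called higher in 2 of 26 alternative settings, none of them with 1 library left out. Chrm3 was called in none. Among 17 duct ion transport genes, the carbonic anhydrase Car2 was 26.5, 17.7, 32.6, 18.9 and 25.5 CPM in control and 10.6, 9.69, 7.09, 11.9 and 12.8 CPM in SJQYD, with no overlap (-1.22 ± 0.19 (SE, adjusted p = 0.000913)), against 19.6 ± 3.95 CPM in model. Car2 lost its call in 2 of 3 FPKM settings (adjusted p up to 0.115).

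Tight junction genes held more calls than most gland lists, 5 lower and 2 higher of 18 (38.9% called, against 11.1% of all genes, median -0.32). Tjp3, a scaffold under the junction, was 54, 36.6, 49, 47.6 and 35.5 CPM in control and 11.1, 20.7, 11.4, 19.4 and 23.5 CPM in SJQYD (-1.37 ± 0.22 (SE, adjusted p = 0.00125)). It averaged 52.7 ± 13.3 CPM in model, and against model the log2 fold change was -1.62 ± 0.22 (SE, adjusted p = 0.000769). Claudins, which set the permeability of the junction, went both ways. Cldn3 was 54, 38.2, 53.9, 47.1 and 46 CPM in control and 82.8, 83.6, 77.5, 84 and 77.1 CPM in SJQYD (0.76 ± 0.15 (SE, adjusted p = 0.00545)). Cldn8 was 17.1, 9.8, 19.1, 13.1 and 20.8 CPM in control and 6.96, 10.5, 6.36, 9.21 and 9.21 CPM in SJQYD (-0.92 ± 0.19 (SE, adjusted p = 0.00686)), and Cldn1 fell by 1.10 ± 0.28 (SE, adjusted p = 0.0195) on the log2 scale, a call lost without SJQYD 1 or control 1 (adjusted p up to 0.0549). On log2(FPKM + 1), 11 of 16 tight junction genes that passed the filter had a positive fold change, and their median of 0.16 was below the 0.33 of all genes. The call of Cldn8 was lost in all 3 FPKM settings (adjusted p 0.182 to 0.279) and that of Cldn1 in 2 of them (adjusted p up to 0.104).

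Of 20 gland epithelial transcription factors 4 were lower, against 5.90% of all genes, and none was higher (median 0.02). The prolactin receptor Prlr, which is in that list, was 20.8, 10.6, 18.6, 13 and 16.8 CPM in control and 7.95, 7.5, 7.9, 10.3 and 8.65 CPM in SJQYD, with no overlap (-0.92 ± 0.18 (SE, adjusted p = 0.00528)). The homeobox factor Barx2 was 52.6, 42.3, 49.5, 39 and 43.8 CPM in control and 32.7, 28.7, 27.9, 32.2 and 26.6 CPM in SJQYD (-0.62 ± 0.14 (SE, adjusted p = 0.00964)), and the forkhead factor Foxc1 fell by 0.69 ± 0.17 (SE, adjusted p = 0.0156) on the log2 scale. The fourth was Elf5 (-0.65 ± 0.18 (SE, adjusted p = 0.0257)), a factor of secretory epithelium, whose call was lost without SJQYD 1, SJQYD 3, control 1 or control 3 (adjusted p up to 0.076). Among basal duct and myoepithelial markers, the keratin Krt19 fell from 2.85 to 6.75 to 1.66 to 2.95 CPM (-1.09 ± 0.25 (SE, adjusted p = 0.00987)). All 4 of these genes and Krt19 lost their calls in all 3 FPKM settings (adjusted p 0.118 to 0.916).

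Of 32 nuclear genes of the mitochondrial respiratory chain 11 were lower, against 5.90% of all genes, and none was higher (median -0.29), and 27 had a negative fold change. Atp5g1, a subunit of the proton ring of ATP synthase, was 62.9, 64.1, 85.3, 68.1 and 85.4 CPM in control and 31.7, 25, 32.6, 31.8 and 37.6 CPM in SJQYD (-1.20 ± 0.18 (SE, adjusted p = 0.000662)). Uqcrfs1, the iron-sulfur subunit of complex III, was 55, 40.7, 49, 50.5 and 69.3 CPM in control and 31.1, 29.7, 32.9, 36.2 and 35.5 CPM in SJQYD (-0.68 ± 0.13 (SE, adjusted p = 0.00444)), and Uqcrc2, a core subunit of the same complex, fell by 0.59 ± 0.13 (SE, adjusted p = 0.0104) on the log2 scale. In model, Atp5g1 averaged 32.7 ± 9.97 CPM, near the SJQYD mean of 31.7 ± 4.51 CPM, and Uqcrfs1 41.3 ± 5.63 CPM. No nuclear gene of the chain was called against model (median -0.10, with 10 of 32 positive). The 13 transcripts of the mitochondrial genome were not called (median -0.42, with 4 at an unadjusted p under 0.05). The direction of the nuclear list depended on the scaling. On log2(FPKM + 1) 27 of 32 genes had a positive fold change, with a median of 0.24 against 0.33 for all genes, and on log2(FPKM + 0.1) the medians were 0.25 and 0.54. Atp5g1, Uqcrfs1 and Uqcrc2 lost their calls in all 3 FPKM settings (adjusted p 0.0546 to 0.938).

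**Figure D4:**
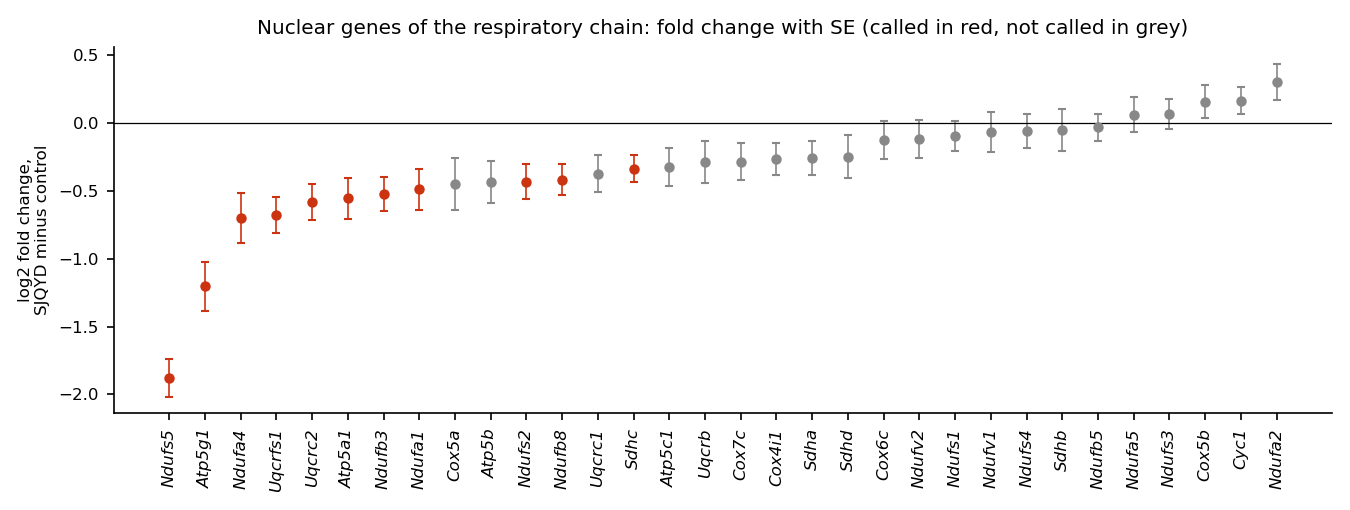
Log2 fold change of SJQYD minus control with its standard error (vertical axis) for 32 nuclear genes of the respiratory chain, ordered by fold change; genes called at an adjusted p under 0.05 are red and the others grey. The 11 called genes are all below 0, and Ndufs5 and Atp5g1 lie apart from the others.

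The lists of matrix, heat shock, fatty acid, antioxidant and autophagy genes held 13.0 to 18.8% called members, against 11.1% of all genes. Most of their calls were lower. Over all genes 1070 of the 2017 calls were lower, 5.90% of the genes tested. Of 23 fibroblast and matrix genes 3 were lower (median -0.47), with the basement membrane chain Col4a1 at 27, 27.8, 29.8, 35.8 and 38.1 CPM in control and 13.5, 16.7, 16.9, 17.8 and 28.8 CPM in SJQYD (-0.76 ± 0.17 (SE, adjusted p = 0.00866)) and the proteoglycan Lum falling by 0.78 ± 0.16 (SE, adjusted p = 0.00582) on the log2 scale. On log2(FPKM + 1) 10 of 19 genes of that list were positive (median 0.02). Of 16 heat shock and cold-inducible genes 3 were lower, among them the chaperone Hsp90ab1 at 258, 290, 247, 232 and 343 CPM in control and 193, 175, 133, 117 and 202 CPM in SJQYD (-0.74 ± 0.17 (SE, adjusted p = 0.00997)). Of 24 genes of fatty acid synthesis and oxidation 4 were lower, among them the desaturase Fads2 (-0.87 ± 0.19 (SE, adjusted p = 0.00947)) and the dehydrogenase Acadm (-0.57 ± 0.14 (SE, adjusted p = 0.0133)). Of 23 antioxidant genes 3 were lower and 1 was higher, with thioredoxin, Txn1, at -0.75 ± 0.13 (SE, adjusted p = 0.0026). In autophagy 3 of 24 were lower and 1 was higher, and Gabarapl1, an autophagosome protein, was 87.6, 55, 74.8, 77.6 and 104 CPM in control and 37.8, 40.4, 37.3, 46 and 46 CPM in SJQYD (-0.94 ± 0.14 (SE, adjusted p = 0.0008)). Of 25 cell division genes 1 was called, the thymidylate synthase Tyms, which was lower (-0.79 ± 0.18 (SE, adjusted p = 0.0121)). Of 21 genes of cholesterol synthesis and 25 of the proteasome 1 each was lower. Col4a1, Lum, Hsp90ab1, Fads2, Acadm, Txn1, Gabarapl1 and Tyms lost their calls in all 3 FPKM settings (adjusted p 0.133 to 0.975).

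Markers of adjoining tissues varied widely between libraries. The summed level of mucous sublingual markers was 2051 to 5713 CPM in control. In the SJQYD libraries it ran from 19.7 CPM in SJQYD 5 to 8186 CPM in SJQYD 1. No adipocyte gene of 15 was called (median 3.02, with 5 at an unadjusted p under 0.05). Without SJQYD 5 the median was 0.75. The summed adipocyte level was 632 CPM in SJQYD 5 and 92 to 120 CPM in the other SJQYD libraries, within the 85.5 to 151 CPM of control. Fabp4, a fatty acid carrier of fat cells, was 9.74, 7.42, 9.07, 8.73 and 20.9 CPM in control and 12.6, 12.9, 19.5, 15 and 130 CPM in SJQYD, where SJQYD 5 stood apart. Of 10 tested skeletal muscle genes 3 were higher, against 5.22% of all genes (Ryr1, 2.67 ± 0.73 (SE, adjusted p = 0.0273), Eno3, 0.87 ± 0.24 (SE, adjusted p = 0.029), and Tnnt3), with a summed level of 14.6 to 25.6 CPM in control and 26.2 to 42 CPM in SJQYD. Tnnt3 had no count in any control library and 0.31, 0.325, 0.155, 0 and 0.454 CPM in SJQYD. The call of Ryr1 was lost without SJQYD 2 or SJQYD 3 (adjusted p up to 0.0589) and that of Eno3 without SJQYD 1, SJQYD 2, control 1, control 3, control 4 or control 5 (adjusted p up to 0.0695). Their part in the other results was not tested.

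The genes with the largest differences outside the clock included several that were not called between SJQYD and model glands. Agr2, a disulfide isomerase of mucous cells (chr12:35992907-36004087, plus strand in GRCm38), was 17.8, 9.85, 27.8, 16.8 and 12.8 CPM in control and 0.833, 0.759, 0.419, 0.68 and 0.559 CPM in SJQYD, with no overlap (-4.70 ± 0.32 (SE, adjusted p = 2.4e-07)). It averaged 0.613 ± 0.223 CPM in model. Psmc3ip, a cofactor of meiotic recombination, was 0.70, 0.486, 0.887, 0.901 and 0.926 CPM in control and 5.94, 7.09, 5.94, 5.38 and 6.11 CPM in SJQYD (2.96 ± 0.21 (SE, adjusted p = 3.01e-07)), and 5.2 ± 1.14 CPM in model. Ly6e, a membrane protein induced by interferon, was 67.5, 124, 84, 98.2 and 128 CPM in control and 23.3, 21.9, 19.7, 17.6 and 28.5 CPM in SJQYD (-2.17 ± 0.19 (SE, adjusted p = 3.83e-06)), and 30.9 ± 5.79 CPM in model. In the family of Trim5, Trim12 and Trim30, antiviral ubiquitin ligases with near-identical copies, Trim12c was 6.27, 14.3, 6.63, 6.63 and 20.01 CPM in control and 1.47, 1.58, 1.46, 1.34 and 1.14 CPM in SJQYD (-2.94 ± 0.31 (SE, adjusted p = 2.91e-05)). Trim30d (2.34 ± 0.57 (SE, adjusted p = 0.0154)) and Trim5 (1.88 ± 0.54 (SE, adjusted p = 0.0383)) were higher, and the call of Trim5 was lost without SJQYD 1, SJQYD 2, SJQYD 3, SJQYD 4, SJQYD 5, control 3, control 4 or control 5 (adjusted p up to 0.0763). Against model none of these 6 genes was called, with Agr2 at 0.09 ± 0.30 (SE, adjusted p = 0.934), Psmc3ip at 0.23 ± 0.19 (SE, adjusted p = 0.616) and Ly6e at -0.47 ± 0.18 (SE, adjusted p = 0.194). The absence of a call does not show equal levels. In the Trim family all 6 tested members had a negative log2 fold change against model (median -0.84).

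Several other genes were among the largest falls. Vil1 (villin), an actin bundler of the brush border, was 0.504, 13.9, 6.11, 7.21 and 11.7 CPM in control, with control 1 far below the rest, and 0.107, 0, 0.0466, 0.264 and 0 CPM in SJQYD (-6.51 ± 1.17 (SE, adjusted p = 0.00436)). Gucy2c, the receptor for guanylin, was 16.6, 5.71, 9.53, 8.86 and 10.3 CPM in control and 1.69, 0.78, 2.03, 4.13 and 2.73 CPM in SJQYD (-2.16 ± 0.47 (SE, adjusted p = 0.0102)). The tetraspanin Tspan8 was 3.72, 4.84, 5.3, 7.0 and 18.6 CPM in control and 1.68, 1.04, 1.52, 1.76 and 1.45 CPM in SJQYD (-2.40 ± 0.36 (SE, adjusted p = 0.000777)). Sdr39u1, a short-chain dehydrogenase, fell from 6.74 to 22.5 to 0.997 to 5.27 CPM (-2.37 ± 0.44 (SE, adjusted p = 0.00447)). Ceacam10, a cell adhesion molecule, fell from 1.09 to 9.48 to 0.0349 to 0.911 CPM (-3.15 ± 0.81 (SE, adjusted p = 0.0237)) and the urate oxidase Uox from 3.12 to 9.02 to 0 to 1.52 CPM (-3.21 ± 0.94 (SE, adjusted p = 0.0419)). The call of Ceacam10 was lost without SJQYD 1, SJQYD 3 or control 5 (adjusted p up to 0.0557) and that of Uox without SJQYD 1, SJQYD 3, SJQYD 4, control 1, control 3, control 4 or control 5 (adjusted p up to 0.0872).

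Among the rises, the major urinary protein Mup5, a pheromone carrier of a family with near-identical copies, was 10.8, 0.72, 4.38, 2.65 and 5.74 CPM in control and 28.4, 78.5, 155, 75.6 and 229 CPM in SJQYD (4.55 ± 1.07 (SE, adjusted p = 0.018)). In model it was 54.6, 127, 109, 1008 and 45.9 CPM. Slpi, an inhibitor of leukocyte proteases, was 0.168, 0.396, 0, 1.67 and 0.309 CPM in control and 13.8, 4.08, 6.69, 2.96 and 5.89 CPM in SJQYD (3.67 ± 0.81 (SE, adjusted p = 0.0123)), and 5.77 ± 3.57 CPM in model. The aldehyde dehydrogenase Aldh1a7 was 0.364, 2.85, 0, 0.901 and 3.39 CPM in control and 20.2, 17.1, 17.8, 9.97 and 5.59 CPM in SJQYD (3.22 ± 0.90 (SE, adjusted p = 0.037)), a call lost without SJQYD 1, SJQYD 2, SJQYD 3, SJQYD 4, control 1 or control 4 (adjusted p up to 0.0803).

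Some genes with large differences have processed pseudogenes that moved the opposite way. The ribosomal protein gene Rpl26 (chr11:68901583-68906989, plus strand in GRCm38) was 12.2, 8.63, 8.1, 13.2 and 14.4 CPM in control and 320, 419, 313, 368 and 312 CPM in SJQYD (4.94 ± 0.18 (SE, adjusted p = 1.72e-11)). Its copy Gm15772 (chr5:3236431-3236868, plus strand) was 313 to 360 CPM in control and 13.4 to 19.2 CPM in SJQYD. The sum of the gene and its 3 named copies was 326 to 368 CPM in control and 327 to 438 CPM in SJQYD, a log2 ratio of 0.09 (exact permutation test, two-sided, p = 0.365). In model libraries Rpl26 was 337 to 407 CPM. Rpsa, a ribosomal protein that also binds laminin, differed in the same direction (1.33 ± 0.26 (SE, adjusted p = 0.00502)). It was 477, 526, 229, 199 and 218 CPM in control and 993, 949, 850, 745 and 602 CPM in SJQYD. Its copy Rpsa-ps10 (chr3:150072658-150073542, minus strand) was 300 to 589 CPM in control and 15 to 27.8 CPM in SJQYD, and the sum of the gene and its 10 copies had a log2 ratio of 0.15 (exact permutation test, two-sided, p = 0.333).

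The copies are nearly the same sequence as their genes. Over 438 aligned bases Gm15772 differed from the Rpl26 transcript at 2, and over 885 aligned bases Rpsa-ps10 differed from the Rpsa transcript at 6, in GENCODE M21. Stretches of 60 bases are shown to let the difference be seen, from base 147 to 206 of Gm15772 and from base 184 to 243 of Rpsa-ps10, counted from the 5′ end of each copy and written in its sense strand, with the bases that differ in capitals.
Rpl26: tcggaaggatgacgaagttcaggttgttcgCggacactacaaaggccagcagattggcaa
Gm15772: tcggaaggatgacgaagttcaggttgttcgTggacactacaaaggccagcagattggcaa
Rpsa: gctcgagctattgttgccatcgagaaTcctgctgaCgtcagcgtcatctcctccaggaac
Rpsa-ps10: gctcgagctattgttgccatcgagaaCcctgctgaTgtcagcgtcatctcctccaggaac
Reads of 150 bases from such stretches carry few differing bases, and the levels of the gene and of its copy are each uncertain.

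Ndufs5, a subunit of complex I and the lowest member of the respiratory chain list, was 41.4, 35.4, 39.8, 49 and 51.9 CPM in control and 10.2, 13.2, 9.82, 13.9 and 12.1 CPM in SJQYD (-1.88 ± 0.14 (SE, adjusted p = 4.25e-07)). Its copy Ndufs5-ps was 0.807 to 1.08 CPM in control and 19.5 to 26.8 CPM in SJQYD. The log2 ratio of the sum was -0.34 (exact permutation test, two-sided, p = 0.0238). For Rpl30, a ribosomal protein, the gene was 98.6, 201, 118, 118 and 144 CPM in control and 21.7, 19.6, 31.9, 19.9 and 20.4 CPM in SJQYD (-2.58 ± 0.22 (SE, adjusted p = 3.58e-06)), and the sum with its 8 copies was 125 to 211 CPM in control and 58.9 to 79.6 CPM in SJQYD (log2 ratio -1.21, exact permutation test, two-sided, p = 0.00794). Of 256 tested genes with a named copy 48 were called, against 11.1% of all genes. For 12 of these 48 the summed copies went the opposite way, and how often they did so among genes not called was not counted.

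**Figure D5:**
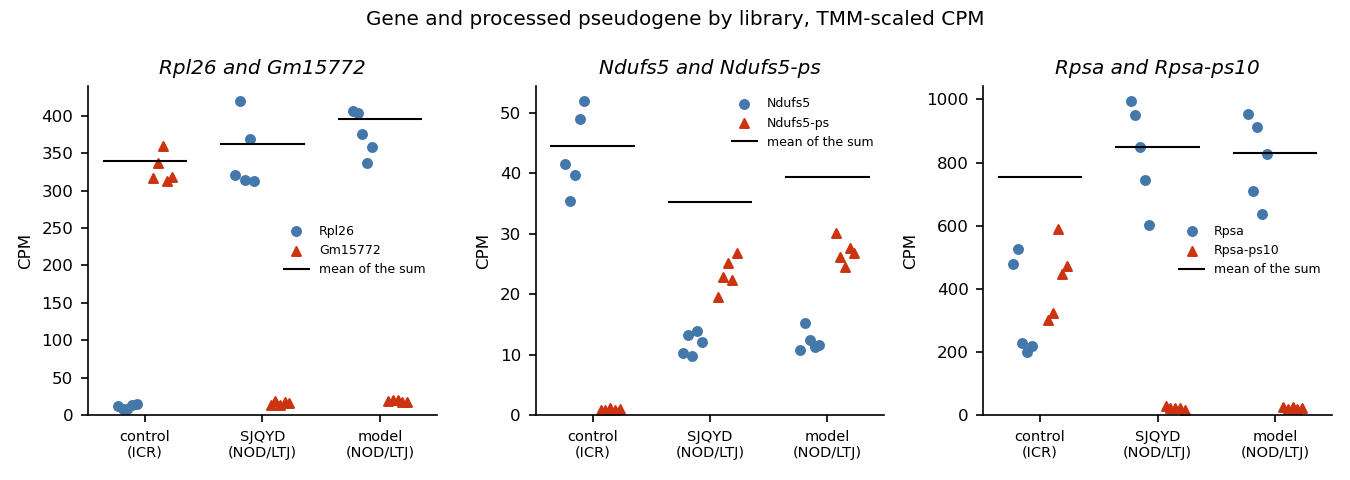
TMM-scaled CPM (linear axis) of Rpl26, Ndufs5 and Rpsa (circles) and a processed pseudogene of each (triangles), with 1 point per library and a line at the group mean of their sum, for control (ICR), SJQYD (NOD/LTJ) and model (NOD/LTJ) glands, 5 libraries each. In every SJQYD and model library the circle is above the triangle for Rpl26 and Rpsa and below it for Ndufs5. In control the order is the opposite for Rpl26 and Ndufs5 in all 5 libraries and for Rpsa in 3 of 5, the gene being above its copy in control 1 and control 2.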

How the data were processed

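Submandibular gland RNA of 3 groups of mice, with 5 libraries each, was sequenced as paired reads of 150 bases, in strand-specific libraries of poly(A) RNA with molecular identifiers, per the labels' protocols. The submitters' processing notes list the aligner HISAT2 2.0.4, the assembler StringTie 1.3.4d, the trimmer cutadapt 1.9 and UMI-tools, besides edgeR and DESeq2, and give the build as mm9. Coordinates in the authors' table equal those of GENCODE M21 (GRCm38) for 29433 of 32385 genes (90.9%), so coordinates are given in GRCm38. Whether duplicate reads were removed by their identifiers is not given in the sources used here.

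The authors deposited a matrix of raw gene counts (whole numbers) with 55401 genes, 22922 of them without a count anywhere. A second deposited table gives FPKM, scaled by gene length and library total, for the other 32479 genes, with their symbols. No column was left unmapped. Differing counts showed no library to be a copy of another.

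Counts were fitted in R 4.3.3 with edgeR 4.0.16. Genes were kept by the expression filter by group, libraries were scaled by TMM, and a robust quasi-likelihood model with a mean for each group was fitted to the 15 libraries and tested for SJQYD minus control and SJQYD minus model. P-values were adjusted by Benjamini-Hochberg over the 18136 genes tested and called under 0.05. CPM are TMM-scaled, and standard errors are the fold change divided by the root of F. Single values were compared by exact permutation of 5 against 5 libraries (252 arrangements). Copies were aligned with BLAST 2.17.0. The fit was tested on simulated counts with 200 changed genes. It recovered 39% of the 2-fold and 73% of the 4-fold changes, with 6 false calls among 118. A gene that was not called may therefore still differ.

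The members and the 56 gene lists were chosen with earlier results of these data known. Genes are named if they were among the 12 largest rises or falls (at least 2-fold, 5 CPM in the higher group, no overlap; predicted genes and receptor segments left out), among the 8 called with the smallest p-values in the same direction against control and model, or among the 5 with the smallest p-values in a described list, besides 8 genes named whatever their values. Ticam1, Casp4 and Nod2 and the genes given without values follow from counts of 5 or fewer. Some named results are not reported here. Alternatives were other scalings, filters, tools (DESeq2 1.42.0, limma 3.58.1 with voom or on log2(FPKM + 1) and log2(FPKM + 0.1), genes filtered at 0.5 FPKM or not), a threshold of 0.01, a replicate block and left-out libraries. The fit without SJQYD 3 and the model libraries was added after seeing the data. The main fit did not pair the samples by replicate number.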

Additional observations from a re-analysis of the deposited data

Results flagged for a closer look

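Within each group of 5, values were checked for a library far from the others: 242 sets of values were examined, 24 had such a library, and chance gives about 1 in 20. Among library measures, the total count was 39510018 in SJQYD 2, against 55732445 to 62335235 in the other SJQYD libraries. Mucl2 took 15.5% of the counts in SJQYD 1, against 37.6 to 46.4% in the others. The 4 parotid products took 4.17% in control 2 and 6.5% in SJQYD 1, against at most 0.623% and 0.271% in the others of each group. Xist was 1.01 CPM in SJQYD 3, against 231 to 270 CPM.

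Control 5 was high for Mt1 (50.5 CPM), Tspan8 (18.6 CPM), Klk1 (17617 CPM) and Fabp4 (20.9 CPM). Control 2 was high for Cd3e (3.85 CPM) and low for Dnajc3 (74 CPM), control 3 was high for Herpud1 (121 CPM), and control 4 for Slpi (1.67 CPM).

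SJQYD 5 was high for Egf (237 CPM), Col4a1 (28.8 CPM), Fabp4 (130 CPM), Acadm (20.9 CPM) and Nod2 (3.84 CPM), and low for Ceacam10 (0.0349 CPM). SJQYD 1 was high for Sec24c (92.4 CPM) and Mogs (65 CPM) and low for Txn1 (19.2 CPM). SJQYD 3 was high for Rpl30 (31.9 CPM), and SJQYD 2 low for Fads2 (4.83 CPM).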

How the results depend on the processing

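The 2017 calls against control were 2019, 2015 and 2014 with other scalings, 1794 with the compared libraries alone, 1564 with no filter, 2810 with DESeq2 and 2456 with voom. On log2(FPKM + 1) they were 3643 (3554 higher, 89 lower), on log2(FPKM + 0.1) 4065 (3971 and 94), and with no FPKM filter 1954 (1862 and 92). Under a threshold of 0.01 they were 664 (288 and 376). Leaving out 1 library gave 1240 to 2626 calls, 582 to 1316 higher and 658 to 1310 lower. The lowest count came without control 5 and the highest without control 2, while 1298 were called without SJQYD 2 (602 and 696), and 682 lower genes without control 1. The 498 calls against model were 1058 with DESeq2, 66, 52 and 43 in the FPKM settings, 160 under 0.01, 186 without SJQYD 1, control 2 and model 3, and 336 to 527 with 1 library left out. The causes were not tested.

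Of 107 named genes called against control, 79 were called in each fit with 1 SJQYD or control library left out, and 70 in each FPKM setting that tested them (3 settings for 99 genes, 1 for 8). The call was lost by 0 with DESeq2, 5 with voom, 12 with no filter and 25 without SJQYD 3 and the model libraries. Of genes not called in the main fit, Aqp5, Egf and Ighm were called in 2 of 26 settings each and Klk1 in 3. On log2(FPKM + 1), filtered or not, Cry1 turned to 0.159, Atp1b1 to 0.0338 and Os9 to 0.133, and on log2(FPKM + 0.1) to 0.194, 0.0341 and 0.136. Cd3e turned to -0.0433 without SJQYD 3, the lowest with 1 library left out (the highest was 2.29, without control 2), and to -0.0327 with the model libraries also left out.

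The replicate block gave 1799 calls against control and 401 against model, and 10 named genes lost their call. Deviations of same-numbered SJQYD and control libraries correlated at 0.04, 0.05, -0.32, 0.15 and 0.17. Of the 5 SJQYD libraries 1 correlated best with its own number. With so few pairs these values cannot show whether samples of the same number share more than the number. Depth limits genes near the floor of 3 counts, such as the Ly49 receptors in control.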

Other observations

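Of 19 tested Toll-like receptor and inflammasome genes 3 were higher in SJQYD than in control glands, against 5.22% of all genes, and none was lower (median 0.21). Ticam1, an adaptor of Toll-like receptors, was 9.10, 6.90, 8.84, 7.89 and 5.41 CPM in control and 14.2, 11.5, 9.19, 11.9 and 13.4 CPM in SJQYD (log2 fold change 0.66 ± 0.18, SE, adjusted p = 0.0271), and 8.82 ± 1.94 CPM in model (SD, n = 5). The others were the inflammatory caspase Casp4 (1.03 ± 0.32, adjusted p = 0.0452) and the peptidoglycan sensor Nod2 (1.01 ± 0.32, adjusted p = 0.0495). The call was lost for Ticam1 without SJQYD 1, SJQYD 5 or control 5 (adjusted p up to 0.0729), for Casp4 without SJQYD 2, SJQYD 4, SJQYD 5, control 1, control 3, control 4 or control 5 (up to 0.148), and for Nod2 without any library but control 1 (up to 0.120). None of the 5 tested genes of the Ro and La autoantigens, the targets of autoantibodies in Sjögren's syndrome, was called by edgeR (median -0.13, with 1 at an unadjusted p under 0.05).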
